A study of Mus musculus with 6 samples.

Results

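The 6 genes described here belong to the poly(A)-binding protein (PABP) machinery and were followed in sorted neural stem and progenitor cells of the mouse hippocampus. Paip1, Paip2 and Paip2b encode PABP-interacting proteins, and Pabpc1, Pabpc4 and Pabpn1 encode poly(A)-binding proteins. They were taken by symbol from a table of 55471 genes, and all 6 were among the 18664 tested genes, whose normalized counts averaged 10 or more. The set was chosen by the measured rise of Paip1 in 3xTg cells, to which the other genes were added as its partners. The Paip1 difference is therefore described without a test, and tests are given for the 5 partners only.

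The compared groups were 3 libraries from 3xTg;Nestin-YFP mice and 3 from NTG;Nestin-YFP mice, at postnatal day 35. 3xTg mice carry mutant human transgenes and model Alzheimer disease, and NTG mice are non-transgenic controls labelled B6129SF2/J. Both groups also carried a Nestin-driven, tamoxifen-inducible Cre and a Cre-dependent YFP reporter at ROSA26, and both received tamoxifen 10 days before collection. YFP marks cells in which the Nestin transgene was active and also their progeny, so that the sorted cells are a mixed population. The NTG line was kept as a colony of its own, so that genotype and colony cannot be told apart. The libraries are called biological replicates by the study, but whether animals were pooled is not given in the sources used here, and p-values measure the spread between these libraries.

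The 3xTg libraries held 53063475 to 81800375 reads assigned to genes and the NTG libraries 32731794 to 42576455, so that every 3xTg library was the deeper one. Over all tested genes, limma called 210 higher (1.13%) and 312 lower (1.67%) in 3xTg, where a call needed an adjusted p under 0.05 and a log2 fold change of more than 0.5 in size. On the main principal component, with 48.5% of the variance, 3xTg replicate 1 lay at 15.0, against 42.9 and 51.6 for the other 3xTg libraries and -51.0 to -27.7 for the NTG libraries. Of 10 neural stem and progenitor markers, limma called 0 in either direction, although 5 had an unadjusted p under 0.05 (as did 23.5% of all tested genes), and their summed normalized count was 88417 to 89737 in 3xTg and 84914 to 106904 in NTG. Markers of blood vessels were lower in 3xTg, with 4 of 10 endothelial markers called (sums of 3986 to 6963 in 3xTg and 8919 to 10804 in NTG) and 3 of 8 mural markers called (sums of 21048 to 34090 in 3xTg and 41155 to 48205 in NTG). Of 10 mature neuron markers, 1 was called lower (sums of 7369 to 8669 in 3xTg and 9379 to 10306 in NTG), and of 10 microglial markers, 1 was called lower (sums of 5952 to 7898 in 3xTg and 7561 to 9026 in NTG). Oligodendrocyte-lineage markers summed to 631357 to 674212 in 3xTg and 327443 to 700182 in NTG, well above the stem and progenitor sums, and none of the 58 markers was at 0 in every library. The part of these other cells, or of depth, in the values below was not tested, and in such bulk samples fewer cells of a type and less RNA per cell cannot be told apart.

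A poly(A) tail protects an mRNA from decay and helps it to be translated, and both tasks run through the proteins that coat it. In the nucleus Pabpn1 covers the growing tail and stimulates the poly(A) polymerase. In the cytoplasm Pabpc1 takes over, binds the scaffold eIF4G at the cap and so brings the ends of the mRNA together, and Pabpc4 is a close relative first described in activated T cells. Paip1 binds PABP, eIF4A and eIF3 and stimulates translation. Paip2 and Paip2b also bind PABP but release it from the tail and repress translation, so that Paip1 and the Paip2 pair work in opposite directions. In the nervous system, Paip2 is known for restraining translation at synapses.

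A short peptide motif, PAM2, is a contact between the families. It lies in the Paip proteins and docks into the MLLE domain at the end of the cytoplasmic PABPs. The stretches that encode PAM2 in Paip1 and Paip2b are shown because both genes share this contact. The codons of the motif are in capitals, and the stretches are written from GENCODE M21 transcripts. The motif begins at coding base 397 of Paip1 and 367 of Paip2b.
Paip1: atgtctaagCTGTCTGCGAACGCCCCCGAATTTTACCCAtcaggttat
Paip2b: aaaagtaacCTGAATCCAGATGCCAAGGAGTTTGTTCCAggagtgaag
Of the 30 bases in capitals, 17 were the same in both genes. The pattern searched was a strict one, L..[ND]A.EF.P in amino acid letters, with a dot for any letter. It was found in 5 of 21877 coding genes, namely Paip1, Paip2, Paip2b, Atxn2 and Atxn2l. Gspt1, which also has PAM2 motifs (below), was not found by it, so that this is not a count of all PAM2 genes. On the other side of the contact, a stretch of 42 bases that encodes part of the MLLE domain, all of it in capitals, begins at coding base 1738 of Pabpc1 and 1813 of Pabpc4.
Pabpc1: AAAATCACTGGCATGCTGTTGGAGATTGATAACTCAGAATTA
Pabpc4: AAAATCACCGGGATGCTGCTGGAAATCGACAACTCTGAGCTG
In this stretch 32 bases were the same. The pattern searched was the exact peptide that both stretches encode, and it was found in no other coding gene. Other forms of the domain were not searched.

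Paip1 (ENSMUSG00000025451; GRCm38 chr13:119428601-119458218, plus strand) had normalized counts of 2480, 3102 and 2802 in the 3xTg libraries, against 188, 229 and 223 in the NTG libraries. The groups were thus far apart, with the lowest 3xTg library above the highest NTG library by more than the whole range of either group. The means were 2795 ± 311 in 3xTg and 213 ± 21.8 in NTG (SD, n = 3 each), a ratio of 13.03 and a log2 fold change of 3.70 with a standard error of 0.14. These values rest on 2632 to 5515 reads in 3xTg and 151 to 163 reads in NTG, so that NTG cells had low but measurable Paip1. No annotated transcript elsewhere was at least 90% identical to Paip1 over 300 bases. Under 18 alternatives the log2 fold change lay between 3.43 and 3.79, also without any single library.

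**Figure D1:**
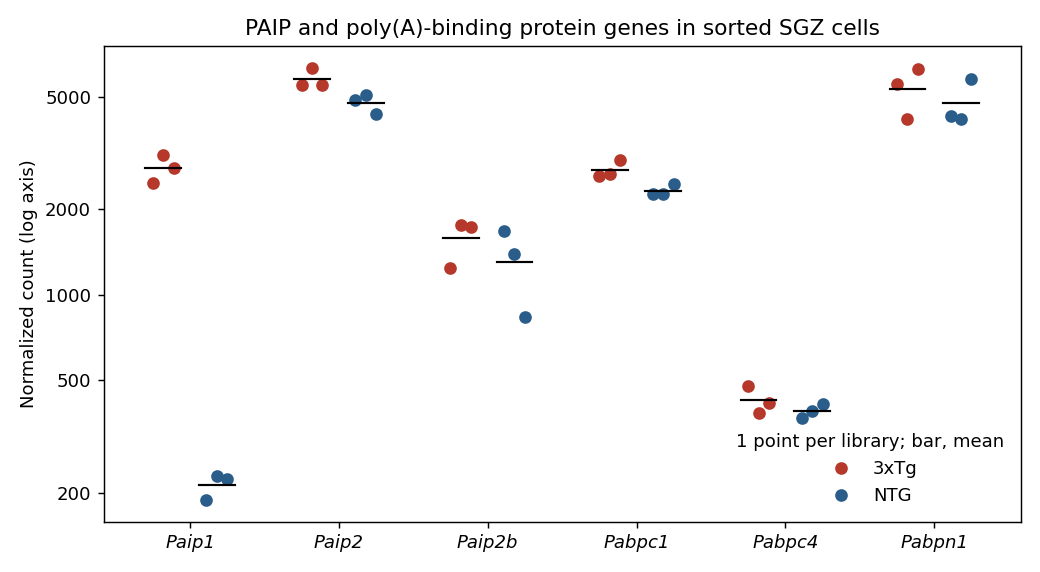
Normalized counts of the 6 genes on a log axis, 1 point per library, with 3xTg left of NTG for each gene and a bar at each group mean. The Paip1 libraries lie at 2480 to 3102 in 3xTg and 188 to 229 in NTG, while the groups of each other gene lie close together or overlap.

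Of the repressors, Paip2 (ENSMUSG00000037058) had 5500, 6338 and 5502 normalized counts in 3xTg, against 4869, 5091 and 4347 in NTG. Every 3xTg library lay above every NTG library, which 27.7% of all tested genes showed in one direction or the other and 15.1% in this one. The means were 5780 ± 483 in 3xTg and 4769 ± 382 in NTG (SD, n = 3 each), a log2 fold change of 0.28 (unadjusted 95% interval 0.04 to 0.52) with a limma adjusted p of 0.166. With the trend on GC content removed from each library, it was 0.01.

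Paip2b (ENSMUSG00000045896; chr6:83805401-83831741, minus strand), the other repressor, had 1244, 1764 and 1730 normalized counts in 3xTg, against 1678, 1394 and 833 in NTG. The groups overlapped, since NTG replicate 1 exceeded 3xTg replicate 1, and NTG replicate 3 lay far below the rest. Its log2 fold change was 0.32 (95% interval -0.21 to 0.86, limma adjusted p of 0.440), and it was between 0.03 and 0.53 when single libraries were left out, with the lowest value without NTG replicate 3. The pooled SD of Paip2b among libraries of a group was 0.42 on the log2 scale, against a median of 0.16 for genes of like level.

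Of the cytoplasmic PABPs, Pabpc1 (ENSMUSG00000022283; chr15:36595661-36609668, minus strand) had 2627, 2678 and 2992 normalized counts in 3xTg, against 2269, 2261 and 2464 in NTG. The groups lay side by side without overlap, as for 15.1% of all tested genes in this direction. Each was narrow, with means of 2765 ± 198 in 3xTg and 2331 ± 115 in NTG (SD, n = 3 each). The log2 fold change was 0.25 (95% interval 0.02 to 0.47) with a limma adjusted p of 0.189, and it was 0.09 with the GC trend removed. With libraries weighted by their quality it was 0.34 at a limma adjusted p of 0.0155, still under the fold threshold. The 2 processed pseudogenes of at least 90% identity, Gm16580 and Gm8276, together held 1.04% to 2.10% as many reads as Pabpc1.

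Pabpc4 (ENSMUSG00000011257; chr4:123262351-123298925, plus strand) had 475, 384 and 413 normalized counts in 3xTg, against 367, 387 and 411 in NTG. The groups overlapped, and only 3xTg replicate 1 stood above all NTG libraries by more than a few counts. Its log2 fold change was 0.12 (95% interval -0.21 to 0.45, limma adjusted p of 0.650), it was 0.04 without 3xTg replicate 1, and it was 0.23 with the GC trend removed. Pabpc4 had 12 annotated copies, of which 11 had values in these data, while those of Gm26837 are not known. Of the 11, 4 carried reads amounting to 6.29% to 16.9% of the count of Pabpc4. With these copies added, the log2 fold change of Pabpc4 was 0.06. Its level is uncertain to at least that extent.

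The nuclear protein gene Pabpn1 (ENSMUSG00000022194; chr14:54892500-54898169, plus strand) had 5547, 4159 and 6285 normalized counts in 3xTg, against 4282, 4161 and 5784 in NTG. The lowest library of either group was nearly the same, and the groups overlapped over most of their range. Its log2 fold change was 0.16 (95% interval -0.22 to 0.55, limma adjusted p of 0.588), and it was 0.35 with the GC trend removed and 0.38 with library weights. The pooled SD was 0.29 on the log2 scale, against a median of 0.14 for genes of like level. Of 3035 exon bases, 651 lie also in Gm20521, an annotated gene on the same strand with a mean of 0.390 in NTG and no reads in 3xTg, and how reads shared by both genes were counted is not given in the sources used here.

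By limma, 0 of the 5 partners passed the thresholds, where 2.8% of all tested genes did, and 2 of them (Paip2 and Pabpc1) had an unadjusted p under 0.05, where 23.5% of all tested genes did. On the recovered reads, edgeR called 0 of 5 (1.22% of all genes higher and 1.62% lower) and DESeq2 called 0 of 5 (3.33% higher and 4.1% lower), and no other alternative called any. All 5 fold changes were above 0, as were 50.8% of those of all tested genes, with a median of 0.25 against 0.01. An exact permutation test of 3 libraries against 3 cannot give a two-sided p under 0.1, and it gave 0.1 for Paip2 and Pabpc1, 0.4 for Pabpc4, 0.5 for Paip2b and 0.7 for Pabpn1. The upper limits of the 95% intervals lay between 0.45 and 0.86, all far below the 3.70 of Paip1, but a difference of the size measured for the partners could not be separated from none after adjustment over all genes.

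**Figure D2:**
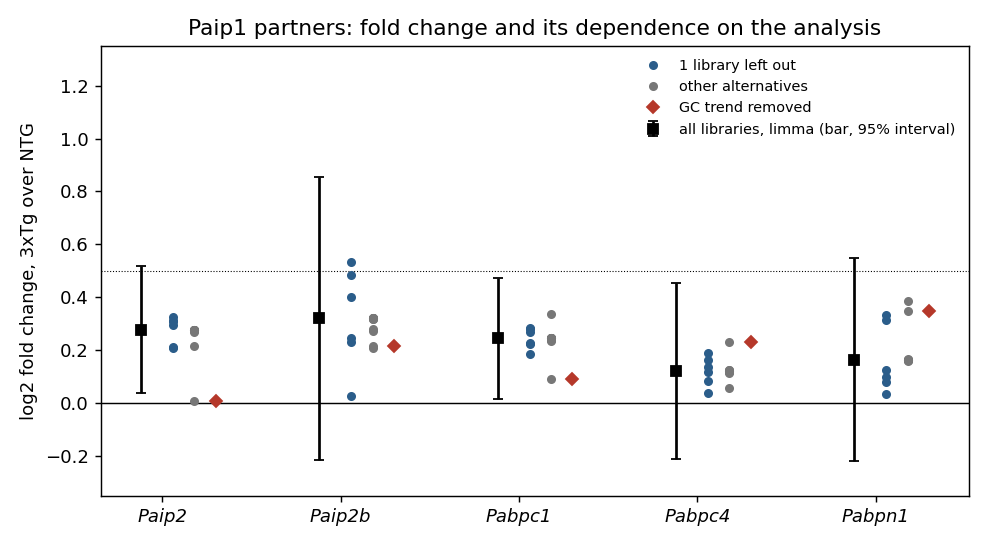
Log2 fold changes, 3xTg over NTG, of the 5 partners over all libraries and under 18 alternatives, with the 95% interval over all libraries and a dotted line at the fold threshold of 0.5. All values lie between 0.01 and 0.53, with the lowest for Paip2 after the GC trend was removed.

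Levels of different genes were compared per kilobase of exon, with the length taken over all annotated exons of a gene. It was 3456 bases for Paip1 and 6540 for Pabpc1. Which transcripts were expressed was not tested, so that the order of genes and the ratios between them depend on these lengths. In 3xTg the order from high to low was Pabpn1 (1756 ± 356 normalized counts per kb), Paip2 (1632 ± 136), Paip1 (809 ± 90.04), Pabpc1 (423 ± 30.2), Paip2b (249 ± 45.9) and Pabpc4 (105 ± 11.6), each as mean and SD of 3 libraries. In NTG it was Pabpn1 (1563 ± 298), Paip2 (1347 ± 108), Pabpc1 (356 ± 17.6), Paip2b (205 ± 67.9), Pabpc4 (96.5 ± 5.44) and Paip1 (61.8 ± 6.32). Paip1 was thus in place 3 of 6 in 3xTg and in place 6 in NTG, and the order of the other 5 was the same in both groups. Pabpn1 and Paip2 overlapped in both groups, and all other neighbours in the order were apart. Among all tested genes, Paip1 stood at percentile 84.4 in 3xTg and 35.9 in NTG.

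The balance between the RNAs of the activator and the repressors follows from these levels and is given as a description. Protein amounts were not measured. Per kilobase, the ratio of Paip1 to Paip2 was 0.495 ± 0.0305 in 3xTg and 0.0461 ± 0.00650 in NTG, and Paip1 made up 30.03% ± 0.853 of the 3 Paip genes in 3xTg and 3.86% ± 0.661 in NTG (SD, n = 3 each). The ratio of Paip1 to Pabpc1, its binding partner, was 1.92 ± 0.238 in 3xTg and 0.173 ± 0.0172 in NTG. The ratio of Paip2 to Pabpc1, in which Paip1 has no part, was 3.88 ± 0.487 in 3xTg and 3.79 ± 0.474 in NTG, so that these overlapped.

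The position of Paip1 was not used to choose it, and its neighbours were therefore examined. The next gene along the same strand, 4833420G17Rik (ENSMUSG00000062822; chr13:119462768-119486120), begins 4550 bases after the end of Paip1. It is annotated as protein coding, and no role is given for it in the annotation used. It had normalized counts of 631, 744 and 904 in 3xTg, against 3087, 2728 and 3314 in NTG. Every 3xTg library was thus below every NTG library, as for 12.6% of all tested genes, the opposite direction to Paip1. The means were 760 ± 137 in 3xTg and 3043 ± 296 in NTG (SD, n = 3 each). The log2 fold change was -2.01 with a standard error of 0.15 and a limma adjusted p of 8.22e-05, and it was -2.14 to -1.89 when single libraries were left out.

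The noncoding transcript Gm9752 (ENSMUSG00000025450; chr13:119473804-119476761, minus strand) lies inside 4833420G17Rik on the other strand. It averaged 45.4 ± 17.5 in 3xTg and 300.4 ± 42.5 in NTG (SD, n = 3 each), a log2 fold change of -2.75 with a standard error of 0.28 and a limma adjusted p of 0.000779. The library kit does not mark strand, and 524 exon bases lie in both genes. Reads from these bases cannot be told apart, and the pair is not counted as separate evidence.

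The counts of Paip1 and 4833420G17Rik were added up after their values had been seen. The sum was 3111, 3846 and 3706 in 3xTg, against 3275, 2956 and 3538 in NTG. The summed counts overlapped, while the share of Paip1 in them was 78.7% ± 2.69 in 3xTg and 6.60% ± 1.02 in NTG (SD, n = 3 each). This share contains the Paip1 counts by which the set was chosen, and is a description only. The counts were not divided by exon length, which is 3456 bases for Paip1 and 4882 for 4833420G17Rik. Whether the levels of the genes are linked was not tested. Whether reads cross from one gene into the other cannot be seen in counts per gene.

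**Figure D3:**
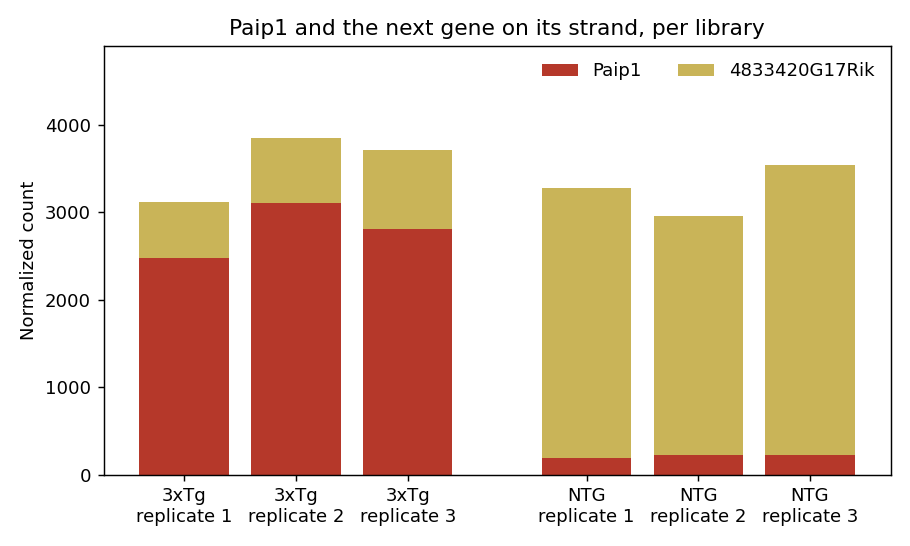
Stacked normalized counts of Paip1 and 4833420G17Rik in each library, not divided by exon length, 3xTg left of NTG. Paip1 makes up most of the sum in 3xTg (78.7% on average) and little of it in NTG (6.60%), and the sums of 3111 to 3846 in 3xTg and 2956 to 3538 in NTG overlap.

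The promoters of the pair are shown since the genes lie end to start on the same strand and moved in opposite directions. They are the 250 bases before each start, from RefSeq on GRCm38.p6, plus strand, chr13:119428350-119428599 for Paip1 and chr13:119462509-119462758 for 4833420G17Rik. Capitals mark a GC box, GGGCGG or CCGCCC on the other strand.
Paip1: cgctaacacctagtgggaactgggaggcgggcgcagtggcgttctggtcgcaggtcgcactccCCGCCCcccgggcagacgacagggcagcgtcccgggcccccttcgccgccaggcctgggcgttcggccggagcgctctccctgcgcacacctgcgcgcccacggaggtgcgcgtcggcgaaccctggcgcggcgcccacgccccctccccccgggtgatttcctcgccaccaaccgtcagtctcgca
4833420G17Rik: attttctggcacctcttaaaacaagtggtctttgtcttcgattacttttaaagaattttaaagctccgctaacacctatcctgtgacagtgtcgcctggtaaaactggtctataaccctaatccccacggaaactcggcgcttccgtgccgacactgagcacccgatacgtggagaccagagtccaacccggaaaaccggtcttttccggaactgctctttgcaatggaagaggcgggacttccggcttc
The Paip1 window had a GC content of 74.8%, at percentile 95.8 of 32851 promoter windows of this length, and the other 49.6%, at percentile 39.5. Paip1 had 1 GC box, which 32.7% of all windows hold. Neither window held CCAAT or its complement ATTGG, found in 33.8% of windows, nor TATAAA or TTTATA, found in 12.4%. A match is a description of the letters and not of a bound site.

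On the other side of Paip1 lies Nnt, which encodes a mitochondrial transhydrogenase that makes NADPH. It starts 19604 bases before Paip1 and runs away from it on the minus strand. Nnt averaged 55.9 ± 8.39 in 3xTg and 66.2 ± 9.79 in NTG (SD, n = 3 each), with a log2 fold change of -0.24 and a limma adjusted p of 0.603. Further along, 3110070M22Rik and Tmem267 had log2 fold changes of -0.59 and -0.65 with limma adjusted p-values of 0.268 and 0.201. For both, every 3xTg library lay below every NTG library, as for 12.6% of all tested genes. Their positions overlap on opposite strands, which the kit does not mark, so that they are not counted as separate evidence. Hmgcs1, the cytosolic HMG-CoA synthase of cholesterol synthesis, had a log2 fold change of 0.39 with a limma adjusted p of 0.154. Its groups were apart in the other direction, as for 15.1% of all tested genes. The antisense transcript Gm48342 had a log2 fold change of 0.05 with a limma adjusted p of 0.929. Of the 7 tested genes within 250 kb of Paip1, the 11 within 1 Mb and the 21 within 5 Mb, limma called only the overlapping pair of 4833420G17Rik and Gm9752. Over all tested genes, limma called 2.8%. Reads from the 524 exon bases that lie in both genes of the pair cannot be told apart, so that its calls are not independent. These bases are 10.7% of the exon bases of 4833420G17Rik.

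**Figure D4:**
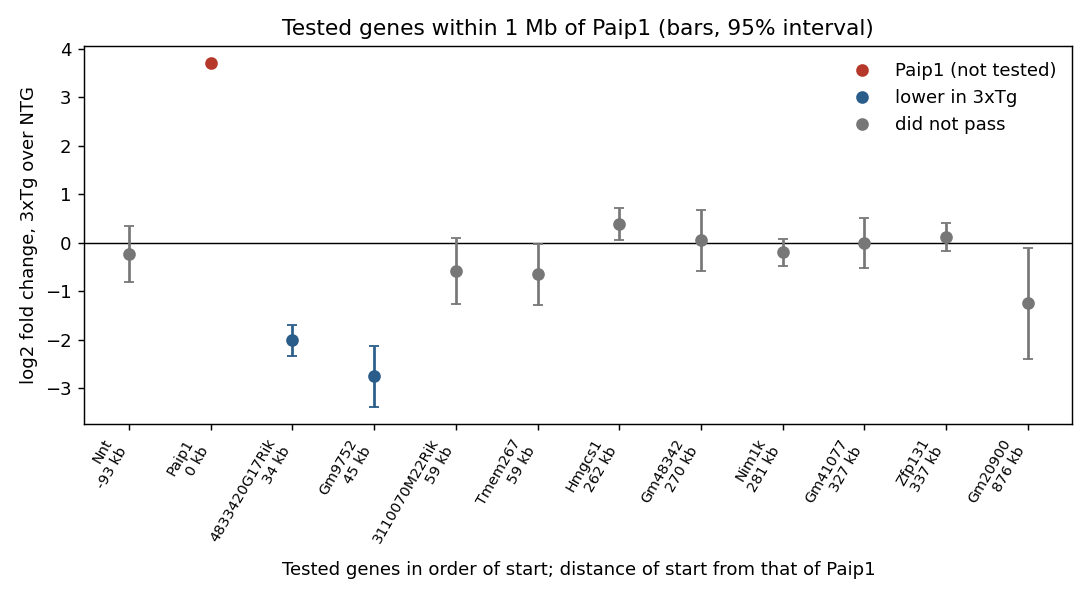
Log2 fold changes, 3xTg over NTG, of the tested genes within 1 Mb of Paip1, placed in order of their start and marked with its distance from the Paip1 start in kb, with 95% intervals for genes other than Paip1. Paip1 lies at 3.70 and the genes directly after it, 4833420G17Rik and Gm9752, at -2.01 and -2.75, while the others were not called.

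The wider machinery around the members was read from 6 lists, which together held 86 tested genes, of which 2 were higher and 1 lower (3.49%, against 2.8% of all tested genes). Of 4 tested further poly(A)-binding proteins, limma called 0, and the same count was given by edgeR and DESeq2. By limma, 1 (25%, against 23.5% of all tested genes) had an unadjusted p under 0.05. That was Zc3h14, a zinc finger protein that binds poly(A) in the nucleus, which averaged 3457 ± 331 in 3xTg and 2860 ± 181 in NTG (SD, n = 3 each) with a limma adjusted p of 0.179. Pabpc2, Pabpc6 and Pabpn1l were under the filter on low counts. Of 16 proteins that bind or modify PABP or Paip proteins, limma, edgeR and DESeq2 called 0, and 3 (18.8%, against 23.5% of all tested genes) had an unadjusted p under 0.05. The smallest adjusted p was that of Gspt1, the release factor eRF3a, which binds PABP through PAM2 motifs of its own, with a log2 fold change of 0.37 and a limma adjusted p of 0.130. Atxn2 and Atxn2l, which shared the PAM2 pattern with the Paip genes, had log2 fold changes of -0.04 and -0.12 with limma adjusted p-values of 0.846 and 0.594.

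The cap complex is the other anchor of the closed mRNA. The list for it held genes of the eIF4F complex, relatives of these genes such as Eif4g2, and inhibitors. Of its 13 tested genes, limma and edgeR called 0 and DESeq2 called 2 higher, Eif4e and Eif4g2. The shares called higher over all genes were 3.33% by DESeq2, 1.22% by edgeR and 1.13% by limma. By limma, 3 of the 13 genes (23.1%, against 23.5% of all tested genes) had an unadjusted p under 0.05. Eif4e, which encodes the cap-binding protein, had normalized counts of 3552, 5078 and 4523 in 3xTg, against 3173, 3129 and 2745 in NTG. The groups were apart, as for 15.1% of all tested genes in this direction. Eif4e had a log2 fold change of 0.53 and a limma adjusted p of 0.0749, so that it did not pass the main test.

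Of 14 subunits of eIF3, the ribosome-bound factor that Paip1 contacts, limma called 1 higher and 1 lower. Over all tested genes it called 2.8%. An unadjusted p under 0.05 was found for 35.7% of the subunits, against 23.5% of all tested genes. Eif3j1 had normalized counts of 1211, 1477 and 1262 in 3xTg, against 510, 722 and 581 in NTG, a log2 fold change of 1.13 with a standard error of 0.15 and a limma adjusted p of 0.00472. Eif3j2 had 30.1, 34.9 and 32.0 in 3xTg, against 321.8, 179.5 and 218.9 in NTG, a log2 fold change of -2.81 with a standard error of 0.27 and a limma adjusted p of 0.000516. The directions were opposite, and the genes are near-identical copies of each other, so that the split of reads between them is uncertain. Eif3e, with a log2 fold change of 0.60 and a limma adjusted p of 0.0519, was also called by edgeR, DESeq2 and 4 other alternatives.

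Of 17 genes for deadenylation, the shortening of the tail, limma, edgeR and DESeq2 called 0, where limma called 2.8% of all tested genes. By limma, 3 (17.6%, against 23.5% of all tested genes) had an unadjusted p under 0.05. The log2 fold changes of the 17 had a median of 0.20, against 0.01 over all tested genes. Of the 17, 15 were above 0, against 50.8% of all tested genes. Whether this shift holds with the GC trend removed was not tested. Cnot6, a deadenylase of the CCR4-NOT complex, averaged 3355 ± 534 in 3xTg and 2457 ± 121 in NTG (SD, n = 3 each), with a log2 fold change of 0.44 and a limma adjusted p of 0.1001.

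Of 22 genes for cleavage and polyadenylation, where the tail is made, limma called 1 higher and 0 lower, against 2.8% of all tested genes. An unadjusted p under 0.05 was found for 22.7% of them, against 23.5% of all tested genes. Nudt21, the small subunit of the cleavage factor that helps to choose the polyadenylation site, had normalized counts of 2336, 2957 and 3021 in 3xTg, against 1924, 1810 and 1658 in NTG. Its log2 fold change was 0.62 with a standard error of 0.13 and a limma adjusted p of 0.0367. The call was lost with the GC trend removed (0.40, limma adjusted p of 0.0560). It was also lost when any of the 3 NTG libraries or 3xTg replicate 2 or 3 was left out, with log2 fold changes of 0.55 to 0.67 and limma adjusted p-values of 0.0634 to 0.167. Without 3xTg replicate 1 it held, at 0.74 with a limma adjusted p of 0.00726.

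**Figure D5:**
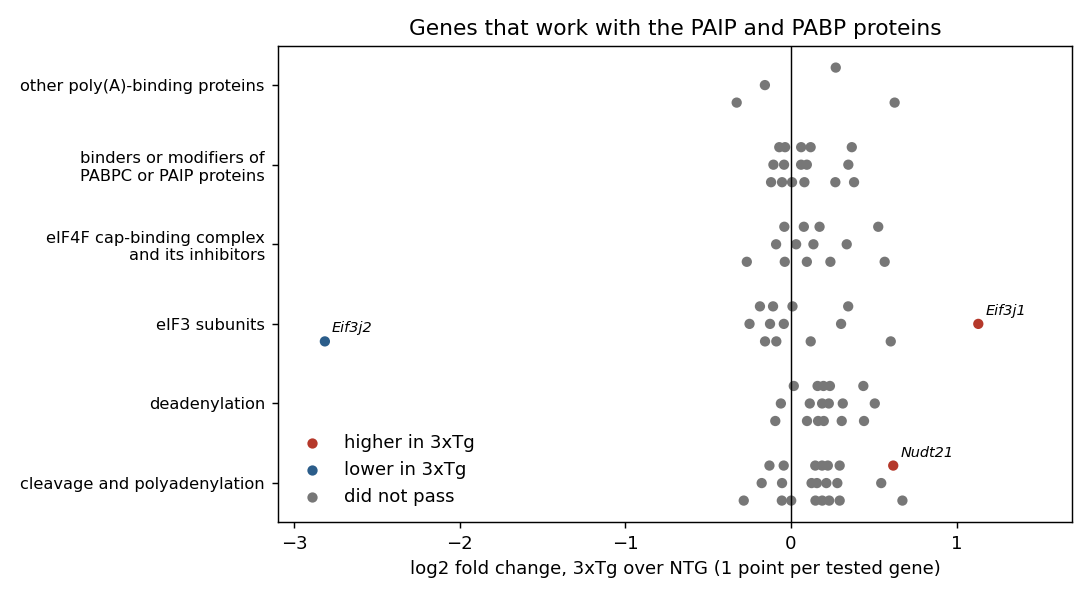
Log2 fold changes, 3xTg over NTG, of the tested genes of the 6 lists, 1 point per gene, with called genes named. Eif3j1 (1.13), Eif3j2 (-2.81) and Nudt21 (0.62) were called, and the other points were not.

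The genes whose levels were most like those of Paip1 over the 6 libraries were Fra10ac1, Them4, Ahcyl, Lancl1 and S100a10. Their Pearson's r was 0.992 to 0.993 on the log2 scale, among 13169 genes with a symbol and a mean of at least 50. Symbols of Gm and a digit or ending in Rik were left out. Of the partners, Pabpc1 had an r of 0.87, Paip2 0.83, Pabpc4 0.49, Paip2b 0.42 and Pabpn1 0.32. These are descriptions over libraries that fall into the 2 groups, which differ in depth, so that each r carries the difference between the groups.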

How the data were processed

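YFP-positive SGZ cells of 3 3xTg and 3 NTG samples were sequenced by the study from SMART-Seq V4 cDNA with Nextera XT libraries. The authors used HISAT2 for alignment to mm10 (GRCm38) and featureCounts for gene counts, with versions and strand settings not given in the sources used here. The deposited signal values are normalized counts made by the authors with DESeq2. All of them were whole multiples (100%, tolerance 0.01) of 1 factor per library, which gave back whole reads. The deposited table also holds the authors' fold changes, p-values, adjusted p-values and weights, which were not used.
The members and gene lists were chosen with earlier results of these data known. With R 4.3.3 and limma 3.58.1 (intensity trend), log2(normalized count + 1) was compared for 18664 genes averaging 10 or more, with Benjamini-Hochberg adjustment over all of them. A gene was called at an adjusted p under 0.05 and a log2 fold change beyond 0.5 in size. The pair of edgeR 4.0.16 and DESeq2 1.42.0 was run on recovered reads as alternatives, beside other added counts, filters, TMM scaling, sample weights, removal of the GC trend, a replicate block, summed copies and leaving out each library. The scripts were tested on simulated data. Positions, exon lengths and transcripts came from GENCODE M21, which matched 55144 genes, and copies were found with BLAST 2.17.0 (at least 90% identity over 300 bases). Promoters came from RefSeq. Python 3.11.15 with pandas 2.3.3, numpy 2.4.6, matplotlib 3.10.9 and scipy 1.17.1 was used for tables and figures.
Genes were named by rule, namely all members, copies of members, and of each list the called genes or else the gene of smallest adjusted p. Also named were the tested genes within 250 kb of Paip1 with called genes within 1 Mb, and the 5 genes most like Paip1. For these 5, genes with no symbol or with a Gm or Rik symbol were left out. Eif3e, Eif4g2, Atxn2, Atxn2l and the genes named only for an alternative were added after their values were seen. Sequences from the chromosome of Paip2 are not printed here.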

Additional observations from a re-analysis of the deposited data

How the results depend on the processing

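In 18 alternatives, 0 of the 5 partners were called, and all 5 fold changes stayed above 0. The log2 fold change of Paip1 was 3.43 with the GC trend removed, also together with the replicate block, against 3.70, and 3.62 to 3.79 without single libraries. Those of Paip2, Paip2b, Pabpc1, Pabpc4 and Pabpn1 without single libraries were 0.21 to 0.33, 0.03 to 0.53, 0.19 to 0.29, 0.04 to 0.19 and 0.03 to 0.33. Gm48342 turned to -0.15 with the GC trend removed, with and without the block, and lay at -0.042 to 0.23 without single libraries (below 0 without 3xTg replicate 2 or 3). Among genes of the cap-complex list, 2 were called higher by DESeq2 and with sample weights (Eif4e and its listed relative Eif4g2), and 0 to 2 without single libraries. Among eIF3 subunits, 2 were called higher with an added count of 10, edgeR, DESeq2, sample weights and the replicate block, and 1 to 2 without single libraries. Among deadenylation genes, 2 were called higher with sample weights (Btg2 and Cnot6) and 0 to 3 without single libraries, and among cleavage and polyadenylation genes 3 by DESeq2, 2 with sample weights, 0 with the GC trend removed (with and without the block) and 0 to 3 without single libraries. Within 5 Mb of Paip1, sample weights called 1 higher (Emb) and 4 lower, and without single libraries 0 to 1 were higher. Without 3xTg replicate 1 the counts for the lists were the highest of their ranges, and the cause was not tested. Over all genes, DESeq2 called 598 higher and 735 lower, sample weights 1196 and 1408, a filter of a mean of 50 called 193 lower, and without single libraries 49 to 959 were higher and 106 to 1071 lower (959 and 1071 without 3xTg replicate 1). edgeR called 228 higher and 302 lower.

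The groups share replicate numbers in the labels. Deviations from the group means correlated at 0.06, 0.20 and 0.04 between libraries of the same number, and not every library correlated best with its own number, so that a shared number is not taken as a pairing. The replicate block gave 302 higher and 450 lower genes in place of 210 and 312, raised the eIF3 count from 1 to 2 and changed no other call among the members, the listed genes and the tested genes within 250 kb of Paip1. The partners had 276 to 11268 reads per library, and the part of depth in the width of their intervals was not tested.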
